A study of Mus musculus with 3 samples.

Results

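The transcripts described here were the nuclear long noncoding RNAs *Malat1*, *Meg3*, *Neat1*, *Snhg11*, *Miat* and *Rian*, taken by gene symbol from the filtered table of raw counts. A row was held for 5 of the 6 among the 14933 genes of that table, and *Rian* was not analysed here. The members were chosen by their measured levels in these same cells, low in cortical neurons and high in the cells beside them, so the differences between classes of cells are given as a description without any test. The cells came from the medial prefrontal cortex (mPFC) of C57BL/6 mice at postnatal day 5, were freed with papain, sorted for tdTomato and profiled with droplet-based 3′ single-cell RNA sequencing (scRNA-seq), to ask which transcripts in layer 5 neurons depend on the transcription factor *Tbr1*. All 3 libraries carried *Rbp4-cre*, a bacterial artificial chromosome transgene that is active in layer 5 projection neurons, and the *Ai14* allele, from which Cre releases tdTomato. They differed in *Tbr1*, which was wild-type, heterozygous for a floxed allele (f/+) or homozygous for it (f/f), and Cre removes exons 2 and 3 of that allele. Each genotype was 1 library and the number of animals pooled in it is not given in the sources used here, so genotype and library cannot be told apart and no p-value is given.

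Long noncoding RNAs of this kind are transcribed by RNA polymerase II and stay largely in the nucleus instead of being translated. *Malat1* lies in nuclear speckles, which store splicing factors, and is among the most abundant transcripts of most mammalian cells. *Neat1* is the scaffold of paraspeckles, *Meg3* and *Rian* are expressed from the maternal chromosome of the imprinted Dlk1-Dio3 locus, *Snhg11* hosts small nucleolar RNAs in its introns, and *Miat*, also called Gomafu, forms its own nuclear domain in neurons. Because they are held in the nucleus, these RNAs report on nuclear RNA in a droplet, whereas mitochondrial transcripts come from the cytoplasm.

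In the GENCODE M21 annotation of GRCm38, *Malat1* (ENSMUSG00000092341) was a lincRNA of 1 exon on the minus strand at chr19:5795690-5802672, and *Neat1* (ENSMUSG00000092274), also of 1 exon on the minus strand, was at chr19:5824708-5845478. *Meg3* (ENSMUSG00000021268) was on the plus strand at chr12:109541001-109571726, with 5 exons in its longest transcript. *Miat* (ENSMUSG00000097767) was on the minus strand at chr5:112213228-112229395, with 7 exons. *Snhg11* (ENSMUSG00000044349) was on the plus strand at chr2:158375638-158386145, with 5 exons, and was the only one of them typed as protein-coding there. On the same strand, *Malat1*, *Meg3*, *Miat*, *Neat1* and *Snhg11* were overlapped by 1, 4, 4, 3 and 2 annotated genes, all typed as misc_RNA, miRNA or snoRNA. On the opposite strand, *Malat1*, *Meg3* and *Miat* were each overlapped by 1. The counts were used as the authors gave them, and reads were not assigned again here.

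The assay primes reverse transcription with oligo(dT), which pairs with runs of A. A-runs inside a transcript and the polyadenylation signal at its annotated end were therefore looked up. Only the longest annotated transcript of each gene was used, and its annotated end need not be the end of the mature RNA. The stretch around the longest A-run of *Malat1* (chr19:5795963-5796024, minus strand, exonic, in the longest transcript) and the last 50 bases of 4 transcripts are shown 5′ to 3′ from the GRCm38 annotation. Capitals mark the run of 12 A in the first sequence and the motif AATAAA or ATTAAA in the others, searched on the transcript strand only, and the tail of *Neat1* held neither.
*Malat1* A-run: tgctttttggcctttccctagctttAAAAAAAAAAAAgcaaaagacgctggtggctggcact
*Malat1* end, chr19:5795690-5795739: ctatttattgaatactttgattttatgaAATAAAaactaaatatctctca
*Meg3* end, chr12:109571677-109571726: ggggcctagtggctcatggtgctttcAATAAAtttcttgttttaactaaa
*Miat* end, chr5:112213228-112213277: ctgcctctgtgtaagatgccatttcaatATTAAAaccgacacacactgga
*Neat1* end, chr19:5824708-5824757: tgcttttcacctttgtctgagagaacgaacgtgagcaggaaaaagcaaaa

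The A-run of *Malat1* ended 298 bases before the annotated 3′ end. The longest run of A was 16 bases in *Meg3*, 8 in *Snhg11*, 7 in *Neat1* and 4 in *Miat*. A run of at least 12 A was held by the longest transcript of 4.36% of 6058 lincRNA genes and of 8.50% of 21901 protein-coding genes, and either motif stood in the last 50 bases of 41.6% and 72.2% of them. These matches describe the annotated sequence and do not show where reads of these libraries began.

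The filtered table held 17396 cells. The study kept 11943 of them as neurons, divided here into typical neurons (1778 wild-type, 5357 heterozygous and 3935 homozygous cells, which it used to compare genotypes) and atypical neurons (304, 107 and 462 cells, which it set aside), and left 2873, 1398 and 1182 other cells. Median depth ran from 1375 to 2541.5 unique molecular identifiers (UMIs, counts of distinct captured molecules) per cell over the 9 groups of library and class. The median share of mitochondrial UMIs was 10.4%, 15.4% and 12.5% in typical neurons of the wild-type, heterozygous and homozygous libraries, 10.1%, 19.5% and 13.6% in atypical neurons, and 4.45%, 12.99% and 7.95% in the other cells. Between libraries, 140 barcodes were shared, touching 281 cells. In typical neurons *Neurod6*, an excitatory neuron marker, stood at 201, 246 and 240 CPM (UMIs of the gene scaled to a group total of 1000000), against 118, 164 and 153 CPM in the empty droplets of the same libraries (barcodes with at least 100 UMIs that were too shallow to pass as cells). The 8 astrocyte markers summed to 10987, 10173 and 11138 CPM in typical neurons and to 13339, 11719 and 12628 CPM in the other cells. *Fabp7* and *Apoe* made up most of that sum, with wild-type *Fabp7* at 5713 CPM in typical neurons, 3598 CPM in other cells and 5752 CPM in empty droplets, and *Apoe* at 3968, 7379 and 3933 CPM. *Tbr1* itself was at 27.5, 30.7 and 22.4 CPM in typical neurons, but 3′ tags lie outside the deleted exons and do not check the labels.

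*Malat1* was the most abundant member in every class. In typical neurons it reached 1129.5, 348 and 594 CPM in the wild-type, heterozygous and homozygous libraries, from 4146, 3629 and 3608 UMIs. In atypical neurons it reached 13185, 3505 and 2663 CPM in the same order. In the other cells it reached 33113, 14926 and 26359 CPM. In each library the order was thus typical, atypical, other, and the lowest value among other cells lay above every value in the neuronal classes. Nothing is read from that order, since these levels chose the members. Other cells exceeded typical neurons 29.3-fold in wild-type (log2 ratio 4.87, 95% interval 4.83 to 4.92), 42.8-fold in heterozygous (5.42, 5.37 to 5.47) and 44.4-fold in homozygous cells (5.47, 5.42 to 5.52). These exact binomial intervals cover counting error only, since a class within a library has no replicate.

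**Figure D1:**
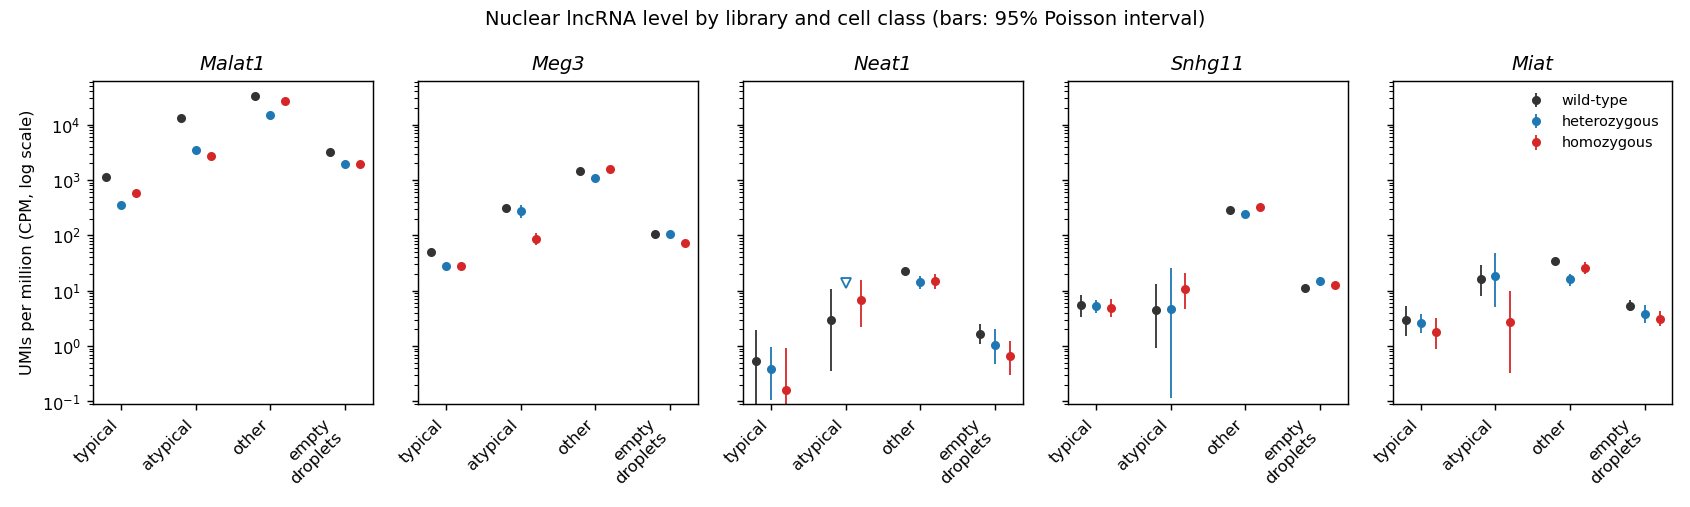
Level of each member in CPM (log axis) by class of cells, with 1 point for each library, bars for the 95% Poisson interval and an open triangle, drawn at the level of 3 UMIs, where no UMI was counted. *Malat1* sits between 348 and 1129.5 CPM in typical neurons and between 14926 and 33113 CPM in other cells, and its empty-droplet points, at 1908 to 3186 CPM, lie above those of typical neurons.

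The classes also differed in how *Malat1* was spread over cells. The median typical neuron held 1, 0 and 0 *Malat1* UMIs in the wild-type, heterozygous and homozygous libraries, while the median other cell held 78, 1 and 33. A *Malat1* UMI was found in 71.1%, 34.01% and 38.7% of typical neurons and in 95.3%, 63.8% and 74.5% of other cells, and after thinning every cell to 1000 UMIs in 50.1%, 22.1% and 29.9% of typical neurons and 91.4%, 51.6% and 70.5% of other cells. No cell type is expected to lack *Malat1*, so no cell class gives a background for these shares, and the empty droplets are used instead. Cells with 10 or more *Malat1* UMIs, a bound set after the values were seen, made up 2.53%, 0.579% and 0.991% of typical neurons and 82.6%, 39.5% and 57.4% of other cells. Among atypical neurons they were 85 of 304 cells, 11 of 107 and 24 of 462, yet they held 96.7%, 91.0% and 89.1% of the *Malat1* UMIs of that class. Without these cells, which are picked by the level of *Malat1* itself, its log2 ratio of atypical over typical neurons was -0.24, 0.34 and -0.35 for wild-type, heterozygous and homozygous cells.

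**Figure D2:**
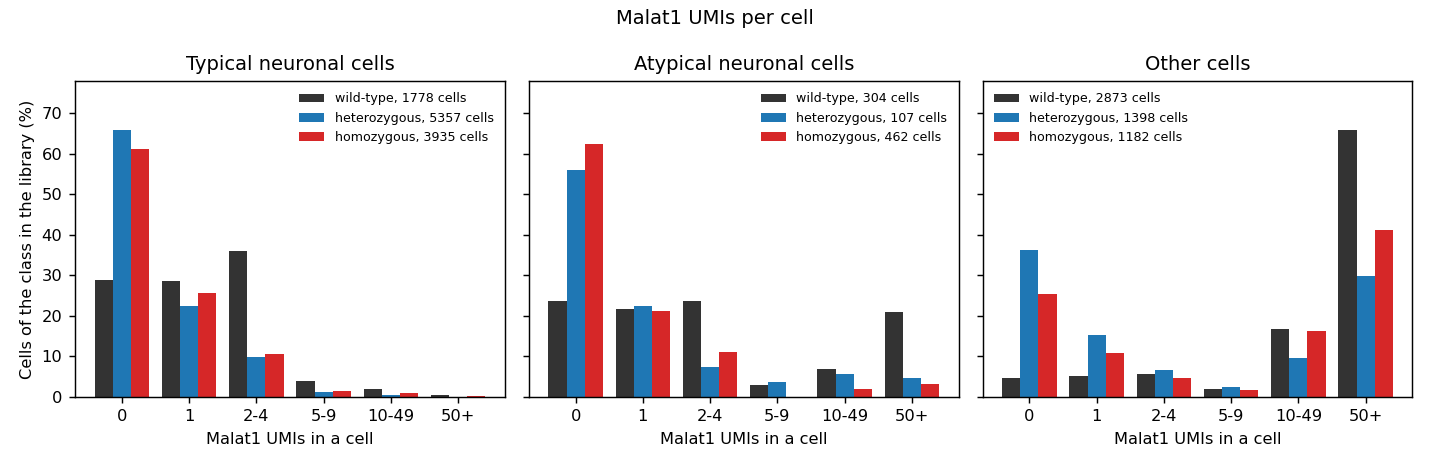
Percent of cells in each class (typical, atypical and other) of each library by the number of *Malat1* UMIs in the cell. In the heterozygous library 66.0% of typical neurons held none, and in the wild-type library 66.0% of other cells held 50 or more.

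*Malat1* in typical neurons was also compared with the empty droplets. These were set apart by depth alone and are taken to hold mainly free RNA, which was not tested. Empty droplets held 3186, 1931 and 1908 CPM of *Malat1* in the wild-type, heterozygous and homozygous libraries. Typical neurons were lower than the droplets of their own library in all 3, with log2 ratios of -1.50 (-1.54 to -1.45), -2.47 (-2.52 to -2.42) and -1.68 (-1.73 to -1.63). Within typical neurons the 45, 31 and 39 cells with 10 or more *Malat1* UMIs held 38.8%, 20.9% and 34.9% of the *Malat1* UMIs of the class. At the 2-fold bound *Malat1*, *Meg3*, *Snhg11* and *Neat1* were lower than in droplets in every library, 4 of 5 members. Beside that, 1.39%, 1.11% and 0.606% of the genes whose mean reached 20 CPM were lower, a level that only *Malat1* and *Meg3* passed. The *Neat1* ratios rested on 2, 4 and 1 UMIs in typical neurons, and each of their intervals included no difference. *Miat* lay below its droplets by less than that, at log2 ratios of -0.85, -0.58 and -0.79. Because low levels in typical neurons chose the members, nothing is read from these counts. The profile of typical neurons as a whole was close to that of the droplets, with the median gene at log2 ratios of 0.06, -0.01 and 0.02 and with 6, 2 and 0 genes at least 2-fold higher in typical neurons among 4185, 4336 and 4293. How much of the RNA counted in the barcodes that the study kept as typical neurons was free RNA was not tested, and this bears on every value given for them.

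*Meg3*, the maternally expressed RNA of the Dlk1-Dio3 locus, ran alongside *Malat1*. Typical neurons held 49.6, 28.2 and 28.0 CPM in the wild-type, heterozygous and homozygous libraries, from 182, 294 and 170 UMIs. Atypical neurons held 314, 273 and 85.9 CPM, and other cells held 1469.7, 1099.9 and 1553 CPM. The ranges of typical and other cells did not overlap, from which nothing is read since these levels chose the members. Empty droplets, at 107.6, 107 and 71.5 CPM, were above typical neurons in every library. Other cells exceeded typical neurons 29.6-fold, 39.0-fold and 55.5-fold (log2 ratios 4.89, 5.28 and 5.79). Atypical neurons exceeded typical neurons by log2 ratios of 2.66 (2.37 to 2.96), 3.27 (2.84 to 3.68) and 1.62 (1.18 to 2.04). Single cells carried much of this, since 1 cell held 35 of the 59 *Meg3* UMIs of heterozygous atypical neurons and 1 cell held 20 of the 64 of homozygous ones, which the intervals do not cover. Markers of other neurons moved with these rises. The 7 striatal markers with a row summed to 141, 123 and 155 CPM in typical and 502, 694 and 750 CPM in atypical neurons. In the same order the 8 inhibitory markers summed to 107, 81.6 and 78.4 CPM and to 255, 148 and 162 CPM. The 8 excitatory markers summed to 2142, 2558 and 3229 CPM and to 778, 2650 and 1487 CPM. *Nrgn* made up most of the excitatory sum, at 1692, 2062 and 2722 CPM in typical and 485, 2354 and 1082 CPM in atypical neurons. Of the same list, *Neurod6* went from 201, 246 and 240 CPM in typical to 50.3, 46.2 and 55.0 CPM in atypical neurons. *Bcl11b*, also of that list, rose from 73.0, 59.0 and 76.4 to 183, 217 and 299 CPM. The part of these markers in the levels of *Malat1* and *Meg3* was not tested.

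Among other cells and atypical neurons *Meg3* was found mostly in cells rich in *Malat1*, although not every such cell held it. In wild-type other cells 2373 had 10 or more *Malat1* UMIs and 1110 had any *Meg3* UMI. Among other cells, *Meg3* was at 48.3 CPM in wild-type cells with under 10 *Malat1* UMIs and at 1690.5 CPM in those with 10 or more. The heterozygous values were 22.9 and 2559.9 CPM and the homozygous values 67.8 and 2238 CPM. Median mitochondrial share moved the opposite way between the same cells, from 8.61% to 4.11%, from 14.7% to 6.94% and from 11.1% to 5.47%. In atypical neurons *Meg3* was at 61.4, 15.5 and 24.1 CPM where *Malat1* was under 10 UMIs and at 970.1, 2522 and 1172 CPM where it was not. Within typical neurons the same split gave 37.6 against 466 CPM in wild-type, 27.0 against 219 CPM in heterozygous and 22.2 against 507 CPM in homozygous cells, although only 45, 31 and 39 typical neurons reached the bound of 10 *Malat1* UMIs. By count, most *Meg3* UMIs of typical neurons, 134 of 182, 279 of 294 and 133 of 170, lay in cells under that bound. The mitochondrial share of the typical neurons with 10 or more *Malat1* UMIs, at medians of 10.6%, 14.5% and 11.4%, was close to the 10.4%, 15.4% and 12.5% of the remainder. Doublets were not called.

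*Snhg11*, the snoRNA host, was almost confined to the other cells by count. It was at 5.45, 5.28 and 4.94 CPM in typical neurons of the wild-type, heterozygous and homozygous libraries, and at 285, 246 and 324 CPM in other cells. Atypical neurons held 4.44, 4.62 and 10.7 CPM from 3, 1 and 8 UMIs, and their intervals against typical neurons spanned no difference in every library. The fold of other cells over typical neurons was 52.3, 46.6 and 65.6. Empty droplets held 11.1, 14.8 and 12.6 CPM, again above typical neurons in all 3 libraries.

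*Miat* was low in every class of cells. Typical neurons held 2.997, 2.59 and 1.81 CPM from 11, 27 and 11 UMIs, and other cells 34.6, 15.98 and 25.6 CPM. This was the smallest difference between those classes among the 5 members, at log2 ratios of 3.53, 2.62 and 3.82. Atypical neurons held 16.3, 18.5 and 2.68 CPM from 11, 4 and 2 UMIs, and the 4 heterozygous UMIs all came from 1 cell.

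*Neat1*, the paraspeckle scaffold, was close to the counting limit in neurons. Typical neurons held 2, 4 and 1 UMIs (0.545, 0.384 and 0.165 CPM) and atypical neurons 2, 0 and 5. For the 0 of 216259 UMIs in heterozygous atypical neurons, the Poisson interval reached up to 17.1 CPM. Other cells held 192, 61 and 40 UMIs, or 22.3, 14.1 and 15.03 CPM. The values of the other cells exceeded those of typical neurons in every library, but with 1 to 4 typical UMIs the folds of 40.9, 36.8 and 91.3 are poorly set.

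At the 2-fold bound all 5 members were higher in other cells than in typical neurons in each library. Of genes whose mean reached 20 CPM, a level that 3 of the 5 members passed, 28.3%, 10.8% and 21.8% were higher in the wild-type, heterozygous and homozygous libraries, and nothing is read from that since these levels chose the members. In atypical over typical neurons 3, 3 and 4 members were higher, beside 3.31%, 3.95% and 2.08% of genes whose mean reached 20 CPM, a level that *Malat1* and *Meg3* passed. With no such minimum 22.6%, 29.2% and 20.5% of genes were 2-fold apart in either direction. That background is nearer to the levels of *Miat*, *Neat1* and *Snhg11*. It also takes in genes with 3 UMIs or fewer in both groups, at which no member was called. The 4 of the homozygous library include *Neat1*, at 5 against 1 UMIs with 4 of the 5 from 1 cell, and *Snhg11*, at 8 against 30 UMIs with an interval that included no difference. The members together made up 0.119%, 0.0385% and 0.0629% of the UMIs of typical neurons and 3.49%, 1.63% and 2.83% of those of other cells. Another scaling (edgeR's trimmed mean of M-values) moved every member's log2 ratio by up to 0.65 and changed no direction. With cells matched on mitochondrial share the *Malat1* log2 ratios of other over typical cells were 4.20, 4.56 and 4.98, and after subtracting 10% of the empty-droplet profile they were 5.34, 6.57 and 6.02. Without the cells with 10 or more *Malat1* UMIs, which are picked by the level of *Malat1* itself, they were 0.12, -0.066 and 0.25.

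Among the members with over 100 UMIs in each library, *Malat1* and *Meg3*, the genotypes of typical neurons differed more in *Malat1*, except that homozygous and wild-type cells differed by like amounts in both. Its 348 CPM in heterozygous cells was 3.24-fold below the 1129.5 CPM of wild-type cells (log2 ratio -1.70, 95% interval -1.76 to -1.63), and the 594 CPM of homozygous cells was 1.90-fold below (-0.93, -0.99 to -0.86). The homozygous value lay between the other two, 0.77 above the heterozygous one on the log2 scale (0.70 to 0.84), so the levels did not follow the number of floxed alleles. *Meg3* was lower than wild-type by similar amounts in both, with log2 ratios of -0.81 (-1.08 to -0.54) in heterozygous and -0.83 (-1.14 to -0.52) in homozygous cells, and the heterozygous and homozygous libraries were within counting error of each other (-0.01, -0.29 to 0.27). For *Snhg11* and *Miat* each genotype interval included no difference.

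At 2-fold, *Malat1* in heterozygous over wild-type was the 1 member lower, beside 0.402% of genes whose mean reached 20 CPM. No member was 2-fold lower in homozygous over wild-type, beside 0.281% of such genes. *Neat1*, with 1 UMI against 4, was the 1 member lower in homozygous over heterozygous, beside 0.163% of such genes. With no minimum level or count, 7.82% of genes were past 2-fold there in either direction. No member was 2-fold higher in these comparisons. Other measures set the wild-type library apart as well. The empty droplets of the wild-type library held the most *Malat1* (3186 CPM, against 1931 and 1908 CPM), its typical neurons had the lowest mitochondrial share and the deepest median (1901 UMIs, against 1743 and 1375), and its other cells were the most numerous. With cells matched on mitochondrial share the *Malat1* log2 ratios to wild-type were -1.51 in heterozygous and -0.68 in homozygous cells, and without the cells with 10 or more *Malat1* UMIs they were -1.36 and -0.86. After subtracting 10% of the empty-droplet profile the *Malat1* ratio to wild-type widened to -2.39 in heterozygous and -1.01 in homozygous cells, and the *Meg3* ratio to -1.15 in heterozygous cells. The share of 10% was assumed and not measured, and the part of free RNA in these differences was not tested further.

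The link between *Malat1* and mitochondrial share differed between classes and libraries. Among other cells with under 5% mitochondrial UMIs, *Malat1* stood at 36022, 34627 and 31721 CPM in the wild-type, heterozygous and homozygous libraries. Between 10% and 15% it stood at 11345, 7046 and 13084 CPM, and between 15% and 20% at 14337, 4089.5 and 8230.0 CPM. The other cells of the 3 libraries were thus closer in *Malat1* at a given low mitochondrial share than as whole classes, and 14 wild-type cells made up the last of these bins. Typical neurons were far lower at like shares. Between 5% and 10% they held 1166, 530.0 and 955 CPM, and between 10% and 15% 1070.4, 343 and 559 CPM. Between 15% and 20% they held 1714, 346 and 392 CPM, so only homozygous typical neurons fell at each of these steps. From 20% to 30% they held 437, 318 and 628 CPM, the first from 14 cells, so the homozygous level rose again there. Across single cells the Spearman correlation of the *Malat1* share of non-mitochondrial UMIs with mitochondrial share was -0.22, -0.52 and -0.44 among 2873, 1398 and 1182 other cells and -0.03, 0.01 and 0.01 among typical neurons. Among 304, 107 and 462 atypical neurons it was -0.39, -0.27 and -0.03, and in wild-type atypical neurons *Malat1* stood at 42321, 17025 and 5227 CPM in the first 3 bins. Over the bins from 5%, 10%, 15% and 20%, homozygous atypical neurons stood at 9971, 2386, 1149 and 554 CPM. Heterozygous ones stood at 43870, 6095, 954 and 1296 CPM, the first from 4 cells. The homozygous correlation near 0 thus sat beside a falling summed level. These values are descriptive, and cells of 1 library share its preparation and depth.

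**Figure D3:**
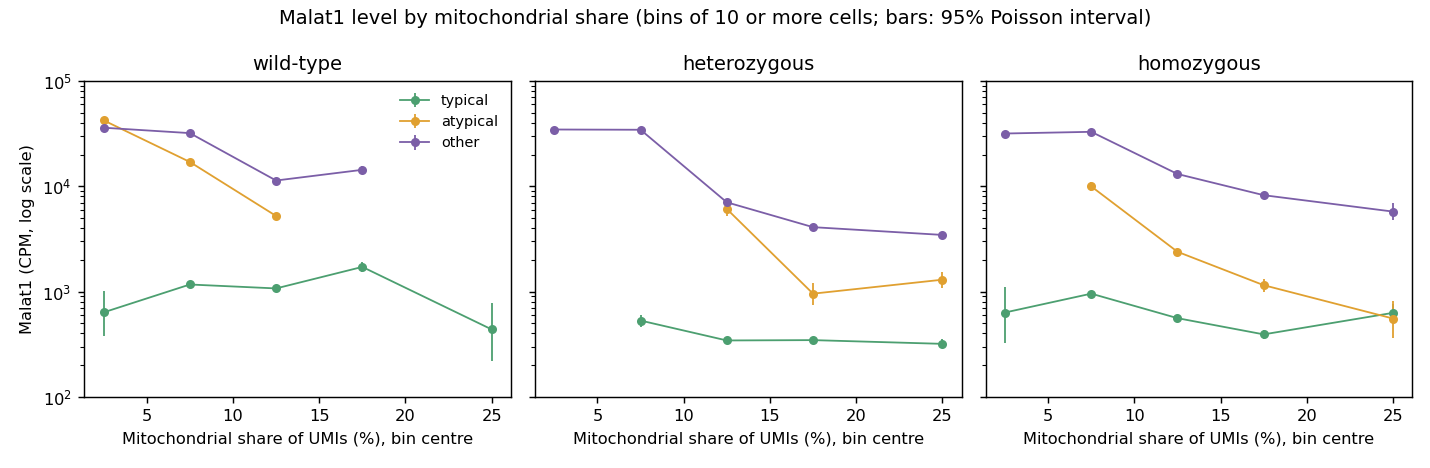
*Malat1* level in CPM (log axis) by share of mitochondrial UMIs, for bins of at least 10 cells, with 1 panel for each library, 1 line for each class and bars for the 95% Poisson interval. The lines of other cells start between 31721 and 36022 CPM below 5% and drop beyond 10%, while typical neurons lie far lower in every shared bin.

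*Meg3* did not follow the same course in every library. In wild-type other cells it went from 1186 CPM below 5% mitochondrial UMIs to 1662, 2879 and 8182 CPM in the next 3 bins. In heterozygous other cells it went from 2148 and 2100.1 CPM in the first 2 bins to 696 and 576 CPM. In homozygous other cells it stood at 1696, 1177, 1585 and 2801 CPM over the same 4 bins, with no steady course. The last wild-type bin held the same 14 cells, its first 3 bins rose without it, and the mix of cell types differs between bins.

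To see which cells carried the members, the other cells were grouped into 29 clusters from variable genes that excluded the members, mitochondrial and ribosomal genes, and 19 clusters were named from marker lists because no annotation of these cells by the study was used. The median cell held 20 or more *Malat1* UMIs in 22 clusters (3867 cells) and under 5 in 7 clusters (1586 cells). Astrocyte-like cells led by *Ptprz1*, *Slc7a10* and *Pla2g7* had the highest level, 84672 CPM, and were alike in the 3 libraries, between 81426 and 93821 CPM. The next clusters by level pooled over the libraries were led by *Sfrp1*, *Ptx3* and *Naaa* (61499 CPM, unnamed) and by *Gfap*, *Pla2g3* and *Serpinf1* (54304 CPM, astrocyte-like), and the counting intervals of these 3 did not touch. In the wild-type, heterozygous and homozygous libraries the *Sfrp1* cluster held 61401, 64965 and 58225 CPM and the *Gfap* cluster 53114, 59337 and 51463 CPM.

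Several names were each given to a cluster rich in *Malat1* and to a cluster poor in it. Microglia-like cells led by *Spp1* and *P2ry12* held 17134 CPM of *Malat1* at a median mitochondrial share of 4.48%, against 2603 CPM at 9.10% in microglia-like cells led by *Aif1*, *Crybb1* and *Bin2*. The first of these showed 15405 to 18814 CPM over the libraries. Endothelial-like cells led by *Slc38a5*, *Car4* and *Pglyrp1* held 23697 CPM at 5.01%, against 5744 CPM at 9.32% in those led by *Apln*, *Vwf* and *Pglyrp1*. A further endothelial-like cluster, led by *Gja4*, *Egfl8* and *Ly6c1*, held 48374 CPM and is outside this pair. Over the libraries the poorer clusters ranged from 1558 to 3095 CPM in microglia-like cells and from 541 to 8144 CPM in endothelial-like cells. In each of these pairs the poorer cluster had more signal of the 8 excitatory neuron markers, 1459.9 against 539 CPM in microglia-like and 1533 against 317 CPM in endothelial-like cells. The poorer cluster also had less signal of its own marker list, 6409 against 20413 CPM in microglia-like and 2505 against 10804 CPM in endothelial-like cells. These marker sums move with the members, and their part in the result was not tested.

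A second astrocyte-like cluster, led by *Slc7a10*, *Ptprz1* and *Slc6a11*, differed between libraries. Its heterozygous cells held 18191 CPM at a median mitochondrial share of 12.6%, against 49663 CPM at 6.16% in wild-type and 52621 CPM at 8.59% in homozygous cells.

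Among the paired clusters the gap was wide in excitatory neurons-like cells. A cluster of 119 such cells led by *Pfkp*, *Rgs11* and *Trank1* held 39118 CPM of *Malat1* and 18959 CPM of *Meg3*, with 99.2% of cells at 10 or more *Malat1* UMIs and a median mitochondrial share of 9.56%. A cluster of 361 excitatory neurons-like cells led by *Nrgn*, *Bhlhe22* and *Camk2a* held 479 CPM of *Malat1* and 43.5 CPM of *Meg3* at 15.3%. Both carried the excitatory markers, at 2481 and 3562 CPM in sum, and *Nrgn* alone gave 3045 CPM of the second sum. In the first cluster *Meg3* was at 19406, 16857 and 19239 CPM in 63 wild-type, 19 heterozygous and 37 homozygous cells, and *Malat1* at 31579, 44592 and 53019.5 CPM. In the second cluster *Malat1* was at 1907, 275 and 392 CPM and *Meg3* at 227, 19.2 and 9.57 CPM in 46, 278 and 37 cells, so its pooled values rest mainly on the heterozygous library. In every library the first cluster lay above the second in both RNAs. The cause of this gap was not tested. *Nrgn*, which is in the excitatory list, was at 876, 1306 and 1551 CPM in wild-type, heterozygous and homozygous empty droplets, and the part of free RNA in these marker sums was not tested. Unnamed clusters led by *Prc1* and by *Crybb1*, at 2335 and 2142 CPM of these markers, held 1324 and 662 CPM of *Malat1*. Median depths of the paired excitatory neurons-like clusters were 2134 and 4402 UMIs, so the cluster poor in *Malat1* was the deeper one. A further excitatory neurons-like cluster, led by *Eomes*, *Sema3c* and *Igfbpl1*, is outside this pair. It held 29224 CPM of *Malat1* but 1392 CPM of *Meg3*.

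**Figure D4:**
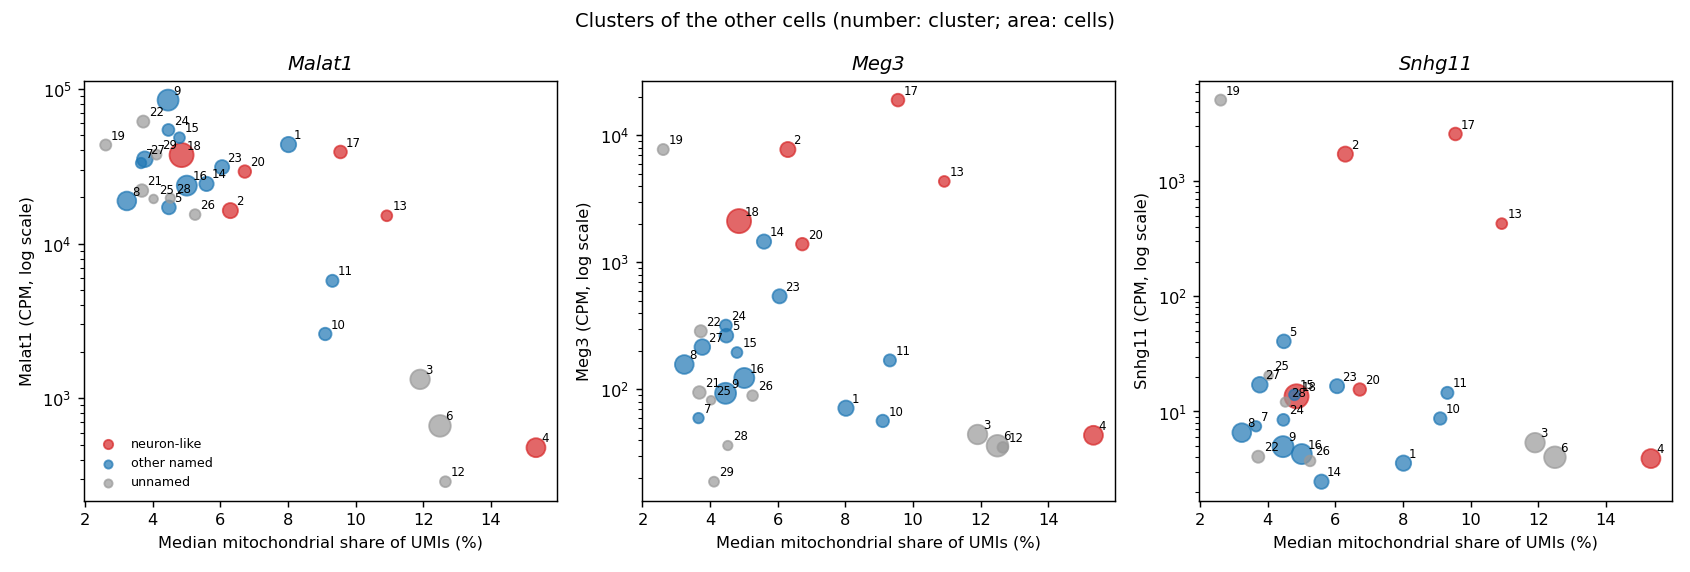
Level of *Malat1*, *Meg3* and *Snhg11* in CPM (log axis) in the 29 clusters of other cells against the median mitochondrial share of each cluster, with clusters at 0 not drawn, point area by number of cells and color by whether the cluster was named as neurons, as another type or not at all. Clusters with a low *Malat1* level lie at mitochondrial shares above those of most clusters with a high one, the highest *Meg3* value (18959 CPM) belongs to an excitatory neurons-like cluster and the highest *Snhg11* value (5053 CPM) to the unnamed *Reln* and *Ndnf* cluster.

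*Meg3*, *Snhg11* and *Miat* had their own order over the clusters. *Meg3* was highest in the excitatory neurons-like cluster above (18959 CPM), followed by an unnamed cluster led by *Reln* and *Ndnf* and an inhibitory neurons-like cluster led by *Npy*, *Sst* and *Cort*, both at 7741 CPM and not separated, and then striatal neurons-like cells at 4342 CPM. *Snhg11* was highest in the *Reln* and *Ndnf* cluster at 5053 CPM, then in the excitatory neurons-like cluster at 2567 CPM, the *Npy* and *Sst* cluster at 1716 CPM and the striatal neurons-like cluster at 428 CPM. In no other cluster did *Snhg11* exceed 40.6 CPM. *Miat* reached 362 CPM in the excitatory neurons-like cluster, 81.6 CPM in the *Npy* and *Sst* cluster and 58.8 CPM in the *Reln* and *Ndnf* cluster, from which oligodendrocyte lineage-like cells led by *C1ql1* and *Pdgfra* (57.4 CPM) and astrocyte-like cells led by *Gfap* (50.7 CPM) were not separated. Outside neurons *Meg3* was seen in mural-like cells at 1458 CPM (866 to 1865 over the libraries) and in meningeal fibroblasts-like cells at 541 CPM, against 93.2 CPM in the astrocyte-like cluster richest in *Malat1*. *Neat1* went elsewhere, with 277 CPM (126 UMIs) in a cluster led by *Pf4*, *Ccl7* and *Ccl2* and 84.4 CPM from 7 UMIs in one led by *Cd74* and *H2-Aa*.

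Among 33 other long noncoding RNAs listed, 19 had a row. *Xist*, the RNA that coats the inactive X chromosome, rose from typical to atypical to other cells in each library, as *Malat1* and *Meg3* did, at 18.8, 8.06 and 5.93 CPM in typical neurons, 438, 264 and 34.9 CPM in atypical neurons and 1399, 828 and 752 CPM in other cells. *Kcnq1ot1*, an imprinted nuclear RNA, stood at 1.36, 1.15 and 1.15 CPM in typical neurons and at 64.9, 29.9 and 39.8 CPM in other cells. Not all noncoding transcripts did so. *Pantr1* was at 675, 703 and 798 CPM in typical neurons and at 442, 608 and 478 CPM in other cells. *Snhg6*, from a separate list of snoRNA hosts, was at 267, 204 and 246 CPM against 109, 152 and 129 CPM. Of that list 7 reached a mean of 20 CPM in each library, with median log2 ratios of -0.60, -0.20 and -0.43. In wild-type cells 1 was 2-fold higher and 1, *Snhg6*, 2-fold lower, beside 28.3% and 4.07% of all genes at that level. None passed 2-fold in the heterozygous or homozygous library. Of the listed RNAs whose mean reached 20 CPM, 4 of 7, 2 of 5 and 3 of 6 were 2-fold higher in other cells than in typical neurons in the wild-type, heterozygous and homozygous libraries, beside 28.3%, 10.8% and 21.8% of all genes at that level, and none was 2-fold lower. In comparisons among typical neurons only *Pantr1*, *Epb41l4aos* and *Gm42418* reached that mean. Those counted as higher thus passed through the other cells, and nothing is read from the count. *Xist* also followed *Malat1* across the paired clusters, at 1772 against 152 CPM in the microglia-like pair and 1786 against 22.7 CPM in the excitatory neurons-like pair.

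**Figure D5:**
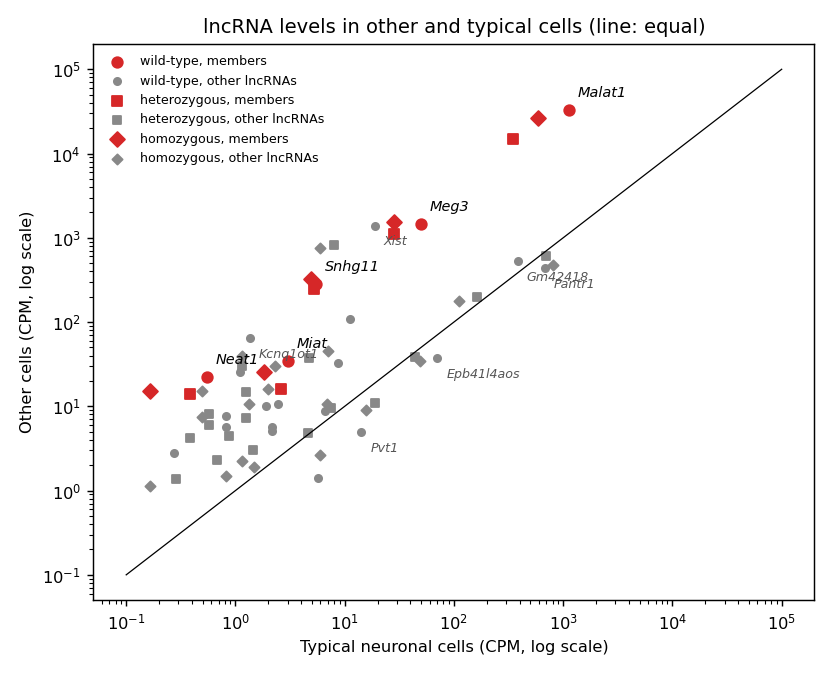
Level in other cells against level in typical neurons (both CPM, log axes) for the members (red) and the other long noncoding RNAs (grey), with the marker shape giving the library and genes at 0 in a class not drawn. The members lie above the line of equality, and *Pantr1*, at 442 to 608 CPM in other cells and 675 to 798 CPM in typical neurons, lies below it.

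Proteins of nuclear speckles and paraspeckles, the bodies that hold *Malat1* and *Neat1*, were read at the level of their mRNAs. Of those whose mean reached 20 CPM, 24 of 32, 11 of 31 and 14 of 32 were 2-fold higher in other cells, beside 28.3%, 10.8% and 21.8% of all genes at that level, with median log2 ratios of 1.34, 0.82 and 0.94 beside 0.46, 0.14 and 0.29 over those genes. *Pnisr*, a speckle protein, went from 25.1 to 254 CPM in wild-type, from 20.2 to 119 CPM in heterozygous and from 20.9 to 170 CPM in homozygous cells. *Celf4*, an RNA-binding protein of neurons, had log2 ratios of -0.14, -0.04 and -0.25. In typical neurons the genotypes gave no member of that list past 2-fold, with medians of -0.03 in both heterozygous and homozygous over wild-type.

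Genes of the immediate response to dissociation moved with the members, with 6 of the 7 that passed 20 CPM at least 2-fold higher in other cells of each library and median log2 ratios of 2.96, 3.22 and 3.56, against the same shares and medians of all genes at that level. *Fos* went from 5.99 to 138 CPM in wild-type cells. In comparisons among typical neurons only *Jun* and *Jund* of this list reached a mean of 20 CPM. The remainder passed through the other cells, where they were high, so nothing is read from that count. Genes encoded in the mitochondrion went the other way, with 11 of 13 at least 2-fold lower in wild-type other cells and none in the heterozygous or homozygous library, beside 4.07%, 0.0204% and 1.30% of genes at that level, and median log2 ratios of -1.12, -0.36 and -0.74. Cytosolic ribosomal protein genes, by a prefix that also takes in the kinase *Rps6kb1*, had medians of -0.33, -0.18 and -0.26. In the Dlk1-Dio3 locus *Begain* was the gene that passed 20 CPM, and its log2 ratios of -0.71, -0.46 and -0.89 were opposite in sign to those of *Meg3*. *Mirg*, another noncoding RNA of the locus, was too low to pass, at 0.817, 0.576 and 0.494 CPM in typical neurons and 7.78, 6.02 and 7.52 CPM in other cells.

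Over the 9 groups of library and class, the genes whose log2(CPM + 1) ran most like *Malat1* were *Ogt* (Pearson r 0.987), *Btg2* (0.982), *Thoc2* (0.981), *Pnisr* (0.976) and *Macf1* (0.973). For *Meg3* they were *Btg2* (0.991), *Nktr* (0.9896), *Ogt* (0.988), *Pltp* (0.982) and *Xist* (0.979). *Malat1* and *Meg3* had an r of 0.97 with each other. *Ogt*, the enzyme that adds O-GlcNAc to nuclear and cytoplasmic proteins, stood at 12.5, 7.97 and 9.05 CPM in typical neurons and at 156, 93.8 and 121 CPM in other cells. The 9 groups share 3 libraries and their depth, so these values rank likeness and carry no p-value.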

How the data were processed

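Single cells of 3 libraries were sequenced by the authors with the 10X 3′ version 2 chemistry and counted on mm10, with Cell Ranger 2.0.1 named in the submitters' processing notes. The authors deposited raw UMI counts per cell and gene of every filtered cell (14933 genes), counts of every barcode in each library, and mitochondrial shares deposited as a fraction, printed here as percent. Deposited log-scaled tables were not used. Classes came from the authors' cell lists. UMIs were summed per library and class and given as CPM. Ratios have exact conditional binomial (Clopper-Pearson) 95% intervals, covering counting error only, and no test was run because each genotype is 1 library and cells are not replicates. A member was called at 2-fold with over 3 UMIs in either group, with genes whose mean reached 20 CPM as background. Shares of genes with no minimum level had no such bound on UMIs. The members (*Malat1*, *Meg3*, *Neat1*, *Snhg11*, *Miat*, *Rian*) and gene lists were chosen with earlier results of these data known. Named genes are the members, the 5 genes most like *Malat1* and *Meg3*, and from each list the 2 highest and 2 lowest ratios, of which the text gives some. *Tbr1*, *Neurod6*, *Nrgn*, *Bcl11b*, *Fabp7*, *Apoe*, *Mirg* and the leading genes of clusters were named outside that rule, after their values were seen. Other cells were clustered (2000 variable genes, 30 components, 15 neighbours, Leiden resolution 1.5, set after a coarser one was seen) with scanpy 1.11.5, and each named cluster had a leading list with at least 3 markers at 2-fold. The clusters led by *Prc1*, *Spc25* and *Pbk* and by *Crybb1*, *Aif1* and *Pycard* were left unnamed. Each had 3 excitatory markers at 2-fold but none among its top genes. The cluster led by *Pfkp*, *Rgs11* and *Trank1* also had none among its top genes, but it had 7 at 2-fold and was named. Alternatives covered scaling (edgeR 4.0.16 and DESeq2 1.42.0 factors on the counts), thinning, depth and mitochondrial matching and subtraction of free RNA, and the ratio script was tested on simulated data. Doublets were not called.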

Additional observations from a re-analysis of the deposited data

How the results depend on the processing

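Values are counts of the 5 members past 2-fold. In homozygous over wild-type typical neurons none passed. That count was 3 with mean raw UMIs per cell and with a 1.5-fold bound, and 1 with cells thinned to 1000 UMIs, without the 5% deepest cells, with cells matched in bins of 100 UMIs and after subtracting 10% of the empty-droplet profile. In heterozygous over wild-type the count of 1 became 2 with cells matched on mitochondrial share, after the subtraction and at 1.5-fold. In homozygous over heterozygous the count of 1 became 0 with matched UMI bins and without shared barcodes, and 2 after the subtraction and at 1.5-fold. Leaving out cells with 10 or more *Malat1* UMIs, an alternative chosen after seeing the data, took the atypical counts from 3, 3 and 4 to 1, 0 and 0 (the 1 being *Snhg11*, lower at -1.45, so that each higher call was lost) and the other-cell counts from 5 to 1, 0 and 2. It also reversed the sign for *Malat1* in atypical wild-type (-0.24) and homozygous (-0.35) cells and in heterozygous other cells (-0.066), for *Meg3* in heterozygous atypical (-0.80) and other cells (-0.23), for *Miat* in wild-type atypical cells (-0.13) and for *Snhg11* in wild-type other cells (-0.11). Thinning reversed *Snhg11* in homozygous atypical cells (-0.16) and took it from -0.19 to 1.002 in heterozygous ones, from 1 UMI, which made that count 4. Ratios whose intervals included 0 also changed sign, among them *Meg3* in homozygous over heterozygous typical cells (0.0012 without the deepest cells, 0.18 with mitochondrial matching, 0.25 after the subtraction), *Neat1* in heterozygous over wild-type (0.51 without the deepest cells), *Miat* without cells rich in *Malat1* in homozygous atypical (-0.080) and heterozygous over wild-type typical cells (0.16), and *Snhg11* thinned in homozygous over heterozygous typical cells (0.049). The cause was not tested, beyond that leaving out cells rich in *Malat1* removes cells by a member's own level. Leaving out cells with shared barcodes moved no *Malat1* ratio by more than 0.03. No replicate could be left out with 1 library per genotype, and no paired analysis was possible because the result comes from no test. Depth limits *Neat1*, *Miat* and *Snhg11* in neurons.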
